A study of Mus musculus with 24 samples.

Results

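Klf2, Klf4, Klf5, Esrrb, Tfcp2l1, Tbx3, Zfp42, Dppa3, Nr0b1 and Prdm14 are genes of the naive state of pluripotency, most of them transcriptional regulators. They were taken by gene symbol from the expression tables of a mouse huntingtin (Htt) study. All 10 had a row among the 17501 genes measured in mouse embryonic stem cells (mESC). Of these, 7 were among the 16024 genes measured in neural progenitor cells (NPC), where Zfp42, Dppa3 and Prdm14 had no row. Total RNA was sequenced as paired-end libraries from 24 samples, 12 of mESC and 12 of NPC. Each cell type came in 6 genotypes, 2 biological samples of each. These were WT, with intact Htt, KO, labelled as a knockout of Htt, and 4 knock-in lines, each heterozygous for an Htt allele with a CAG repeat of 20 (Q20), 50 (Q50), 92 (Q92) or 111 units (Q111). For Q92 the titles and the growth protocol differ, the latter giving 89. All 10 lie in GENCODE M21 on GRCm38, among them Dppa3 at chr6:122626410-122630272 (plus strand, 4 exons), Tbx3 at chr5:119670669-119684724 (plus strand, 7 exons) and Tfcp2l1 at chr1:118627945-118685168 (plus strand, 15 exons), and each value is the signal of the whole gene. The mESC were grown with serum and leukemia inhibitory factor (LIF) on gelatin and an irradiated CF-1 mouse embryonic fibroblast feeder layer, and the NPC were derived from mESC through N2B27 medium and kept on laminin with FGF and EGF. Each genotype was 1 line, so genotype and line cannot be told apart. How the knockout was made is not given in the sources used here.

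Naive embryonic stem cells resemble the epiblast of the preimplantation embryo. LIF keeps them in that state through the receptor chains Lifr and Il6st, Jak kinases and the factor Stat3, which acts on Klf4 and Tfcp2l1, while Tbx3 responds to phosphoinositide 3-kinase signalling and Esrrb is repressed by Tcf7l1 and released by Wnt signalling. These regulators act in parallel beside the core factors Pou5f1, Sox2 and Nanog. In serum with LIF several naive-state genes, among them Zfp42, Dppa3, Klf4, Esrrb and Tbx3, are known to vary from cell to cell as cells move between a naive and a more primed state.

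The upstream sequences of 5 members are shown because 3 of them (Klf4, Tfcp2l1 and Zfp42) differed together between the replicates of every line, while Klf2 and Esrrb did not pass that test. They come from RefSeq on GRCm38.p6, on the gene's strand, 5′ to 3′ and up to the last base before the start of transcription, with 29 bases of Klf2 that overlap an annotated exon left out. Capitals mark matches to 4 motifs searched on both strands: TTCNNNGAA (bound by STAT3), the octamer ATGCAAAT (bound by POU5F1), CCACACCC (bound by KLF factors) and TCAAGGTCA (bound by ESRRB). None of the motifs contains another.
Klf4, chr4:55532476-55532725, minus strand: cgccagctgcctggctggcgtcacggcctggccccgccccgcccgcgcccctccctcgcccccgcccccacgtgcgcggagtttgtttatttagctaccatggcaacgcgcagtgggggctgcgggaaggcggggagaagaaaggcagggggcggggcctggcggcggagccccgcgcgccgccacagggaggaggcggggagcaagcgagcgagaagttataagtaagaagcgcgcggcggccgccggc
Tfcp2l1, chr1:118627695-118627944, plus strand: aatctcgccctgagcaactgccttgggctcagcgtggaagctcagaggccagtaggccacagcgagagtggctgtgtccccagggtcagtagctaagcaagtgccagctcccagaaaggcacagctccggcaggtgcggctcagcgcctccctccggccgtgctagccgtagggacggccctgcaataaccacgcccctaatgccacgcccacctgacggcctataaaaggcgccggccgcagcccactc
Zfp42, chr8:43307010-43307259, minus strand: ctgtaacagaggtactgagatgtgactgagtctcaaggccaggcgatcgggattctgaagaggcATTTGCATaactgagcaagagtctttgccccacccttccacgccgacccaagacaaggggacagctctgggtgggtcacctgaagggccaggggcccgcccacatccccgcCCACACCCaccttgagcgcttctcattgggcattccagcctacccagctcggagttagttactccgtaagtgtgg
Klf2, chr8:72318812-72319032, plus strand: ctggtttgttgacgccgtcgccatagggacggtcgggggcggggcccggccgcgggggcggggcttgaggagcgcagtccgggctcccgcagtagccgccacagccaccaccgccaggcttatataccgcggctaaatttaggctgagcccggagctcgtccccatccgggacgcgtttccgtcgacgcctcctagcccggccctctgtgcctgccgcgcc
Esrrb, chr12:86360867-86361116, plus strand: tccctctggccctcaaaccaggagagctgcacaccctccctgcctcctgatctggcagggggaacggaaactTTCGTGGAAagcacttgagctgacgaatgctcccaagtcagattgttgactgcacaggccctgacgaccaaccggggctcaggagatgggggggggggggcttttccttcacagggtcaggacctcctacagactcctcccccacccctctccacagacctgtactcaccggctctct
Esrrb held the STAT3 motif as TTCGTGGAA, from 178 to 170 bases before the start. RefSeq lists a second start of Esrrb, whose upstream window at chr12:86421394-86421643 (plus strand, not printed) held none of the 4 motifs. Zfp42 held the octamer as its reverse complement ATTTGCAT, from 186 to 179 bases before the start, and the KLF motif from 75 to 68 bases before it. In 250 upstream bases, 7.02% of 32851 RefSeq promoters held the STAT3 motif, 1.6% the octamer, 3.2% the KLF motif and 0.387% the ESRRB motif. The windows of Klf4, Tfcp2l1 and Klf2 held none of these motifs, and a match describes the sequence only. Nr0b1, which did not pass the test between replicates either, also has a RefSeq window, which held none of the 4 motifs and is not printed. Of the 6 members with a RefSeq entry, Klf4 and Klf2 had the most GC-rich windows, with 74% and 71.2% G and C and 32 and 29 CpG dinucleotides, beside a median of 52.4% and 6 over all promoters.

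The recovered read totals ran from 58546211 to 81502284 per mESC library and from 48525333 to 118038952 per NPC library, so every member had at least 128 reads in every mESC library. All 10 members were among the 13916 mESC genes that passed the filter on low values. Htt itself was at 124 and 113 normalised CPM in WT mESC and at 139 and 68.5 in the mESC libraries labelled KO, so the first of these was not below WT, and KO stands for the label from here on. In NPC the values were 137 and 177 in WT and 100.1 and 94.9 in KO. The mESC libraries expressed Pou5f1 and Nanog, defining genes of their label, between 279.7 and 880.0 and between 234 and 617 in every library. The core factor Sox2 had no row under that symbol in mESC or NPC. In bulk RNA, fewer cells that express a gene and less of its RNA per cell cannot be told apart. Genes listed as markers of feeder fibroblasts were present in mESC, and their summed level differed between lines. Tagln and Acta2 reached the highest values among them, at 2.33 to 141 and 1.37 to 96.5 normalised CPM. Col1a2, Col5a1 and Fbn1 reached 31.4, 31.2 and 31.4, and Dcn, Postn and Prrx1 at most 1.28, 2.26 and 2.89. Which cells this RNA came from was not tested. Of 18 listed fibroblast markers 16 had an mESC row, and their summed normalised CPM was 41.5 and 59.2 in WT, 42.1 and 51.6 in KO, 339 and 227 in Q20, 179 and 155 in Q50, 189 and 196 in Q92 and 207 and 168 in Q111.

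**Figure D1:**
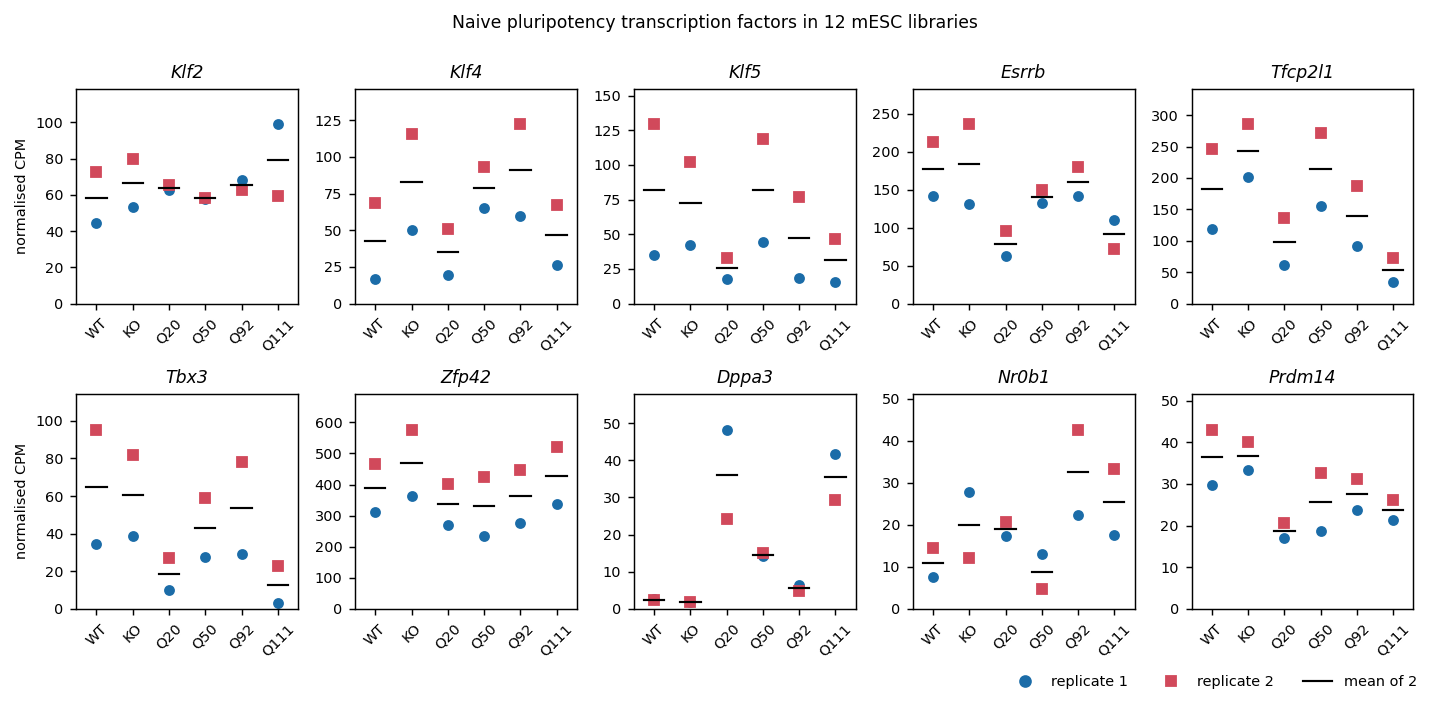
Normalised CPM (y axis, linear, from 0) of each member in the 12 mESC libraries by genotype (x axis). Circles are replicate 1, squares replicate 2 and bars the mean of 2; squares lie above circles in all 6 genotypes for Klf4, Klf5, Tfcp2l1, Tbx3, Zfp42 and Prdm14, and Dppa3 is near the axis in WT and KO.

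Among the Krüppel-like zinc finger factors, Klf2 had 44.4 and 72.6 normalised CPM (replicates 1 and 2) in WT, 53.2 and 79.9 in KO, 62.4 and 65.5 in Q20, 58.0 and 58.5 in Q50, 68.4 and 62.7 in Q92 and 98.9 and 59.2 in Q111. No line stood apart, and the highest library held 2.23 times the level of the lowest, the narrowest range of the 10 members. Klf4, a target of Stat3 and a reprogramming factor, had 16.5 and 68.7 in WT, 50.2 and 116 in KO, 19.4 and 50.8 in Q20, 65.2 and 92.8 in Q50, 59.6 and 122 in Q92 and 26.5 and 67.3 in Q111. Replicate 2 was the higher library in each line, and the line means ran from 35.1 ± 22.2 (SD, n = 2) in Q20 to 90.9 ± 44.2 (SD, n = 2) in Q92. Klf5, which is also expressed in trophectoderm, had 35.2 and 129 in WT, 42.2 and 102 in KO, 18.0 and 32.6 in Q20, 44.6 and 119 in Q50, 18.1 and 77.2 in Q92 and 15.8 and 46.7 in Q111. Its lowest values were the first replicates of Q20, Q92 and Q111, and both Q20 libraries lay below both WT libraries.

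Of the orphan nuclear receptors, Esrrb, a partner of Nanog that can stand in for it, had 142 and 213 normalised CPM in WT, 132 and 236 in KO, 62.6 and 95.6 in Q20, 132 and 149.9 in Q50, 142 and 179 in Q92 and 111 and 72.3 in Q111. All 4 libraries of Q20 and Q111 lay below the other 8. These lines were grouped after the values were seen, and the share of all genes with this order was not computed. Nr0b1, a repressive nuclear receptor also named Dax1, had 7.52 and 14.5 in WT, 27.7 and 12.1 in KO, 17.2 and 20.6 in Q20, 12.9 and 4.62 in Q50, 22.3 and 42.6 in Q92 and 17.5 and 33.3 in Q111. The replicates of KO and Q50 went the opposite way to the others, and Nr0b1 had the largest error of the 10 members in the comparison of replicates.

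Tfcp2l1, a grainyhead-family factor downstream of Stat3, had 119 and 247 normalised CPM in WT, 202 and 285 in KO, 61.2 and 136 in Q20, 156 and 272 in Q50, 91.0 and 187 in Q92 and 34.4 and 73.1 in Q111. Q111 was lowest and KO highest in either replicate. The T-box factor Tbx3 followed a similar order at lower levels, with 34.7 and 95.4 in WT, 38.9 and 81.8 in KO, 9.92 and 27.1 in Q20, 27.4 and 59.0 in Q50, 29.1 and 78.0 in Q92 and 3.32 and 22.5 in Q111. Its range of 28.7 times between the highest and the lowest library was the widest of the members. Tbx3 overlaps the antisense gene Tbx3os1, and Tfcp2l1 overlaps Gm22094, Gm28882 and Gm23497; whether the counting used strand is not given in the sources used here, so reads of Tbx3 and Tbx3os1 may be mixed.

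Zfp42 (Rex1), a zinc finger protein long used as a reporter of the naive state, had 311 and 465 normalised CPM in WT, 363 and 577 in KO, 271 and 403 in Q20, 235 and 424 in Q50, 278 and 447 in Q92 and 337 and 519.8 in Q111. The 6 libraries of replicate 2 lay above all 6 of replicate 1. Prdm14, which represses de novo DNA methyltransferases and FGF signalling genes, had 29.8 and 43.1 in WT, 33.3 and 40.2 in KO, 17.0 and 20.6 in Q20, 18.8 and 32.7 in Q50, 23.8 and 31.3 in Q92 and 21.3 and 26.2 in Q111. Both Q20 libraries lay below both WT libraries. Dppa3 (Stella), a maternal and germ cell protein that protects methylated DNA in the early embryo, had 2.59 and 2.37 in WT, 1.76 and 1.76 in KO, 48.3 and 24.1 in Q20, 14.2 and 15.0 in Q50, 6.53 and 4.91 in Q92 and 41.7 and 29.2 in Q111. Every knock-in library, the lowest at 4.91, was above every WT and KO library, the highest at 2.59. Dppa3 was the only member with that separation in either direction, which 3.41% of all genes tested showed. Dppa3 has near-identical processed pseudogenes, so its counts are uncertain where reads could be split between copies.

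Levels of different genes were set side by side per kilobase of exonic sequence in GENCODE M21. Zfp42 had the highest median over the 12 mESC libraries, at 204 normalised CPM per kilobase. Klf2 followed at 33.9, Esrrb at 22.7, Klf4 at 20.5 and Tfcp2l1 at 15.5. The order ended with Dppa3 at 11.6, Prdm14 at 10.9, Nr0b1 at 9.62, Klf5 at 8.35 and Tbx3 at 4.82. Zfp42, with its lowest library at 125, did not overlap Klf2, whose highest was 53.6. Every other pair of neighbours in this order overlapped in range across libraries.

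The members differed between the 2 replicates of each line. With genotype in the model, 6 of the 10 members were higher in replicate 2 and none was lower (limma, Benjamini-Hochberg adjusted p under 0.05, called from here on), and in all 6 the difference had the same sign in every genotype. The replicate numbers also separated much of the transcriptome: 43.3% of all genes tested were called, 20.5% higher and 22.8% lower in replicate 2, and 19.7% were higher in all 6 genotypes. Klf5 rose by 1.48 (SE 0.16, adjusted p = 0.000397) on the log2(CPM + 1) scale, which understates changes of low genes, from a mean of 29.0 ± 13.2 normalised CPM (SD, n = 6) to 84.4 ± 39.1 (SD, n = 6). Tbx3 rose by 1.46 (SE 0.18, adjusted p = 0.000725), and Klf4 rose by 1.23 (SE 0.17, adjusted p = 0.00114). Tbx3 went from a mean of 23.9 ± 14.1 normalised CPM (SD, n = 6) to 60.6 ± 30.1 (SD, n = 6), and Klf4 from 39.6 ± 21.3 (SD, n = 6) to 86.3 ± 28.7 (SD, n = 6). Smaller rises were seen for Tfcp2l1 at 0.93 (SE 0.09, adjusted p = 0.00035), Zfp42 at 0.66 (SE 0.06, adjusted p = 0.000197) and Prdm14 at 0.41 (SE 0.10, adjusted p = 0.0109). Zfp42 had the smallest SE of the members. Esrrb differed by 0.32 (adjusted p = 0.177), higher in 5 of 6 genotypes, Klf2 by 0.08 and Nr0b1 by 0.08, each higher in 4 of 6. Dppa3 differed by -0.31 (adjusted p = 0.151), higher in 2 of 6. What the replicate number stands for is not given in the labels, so the comparison has no named cause.

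**Figure D2:**
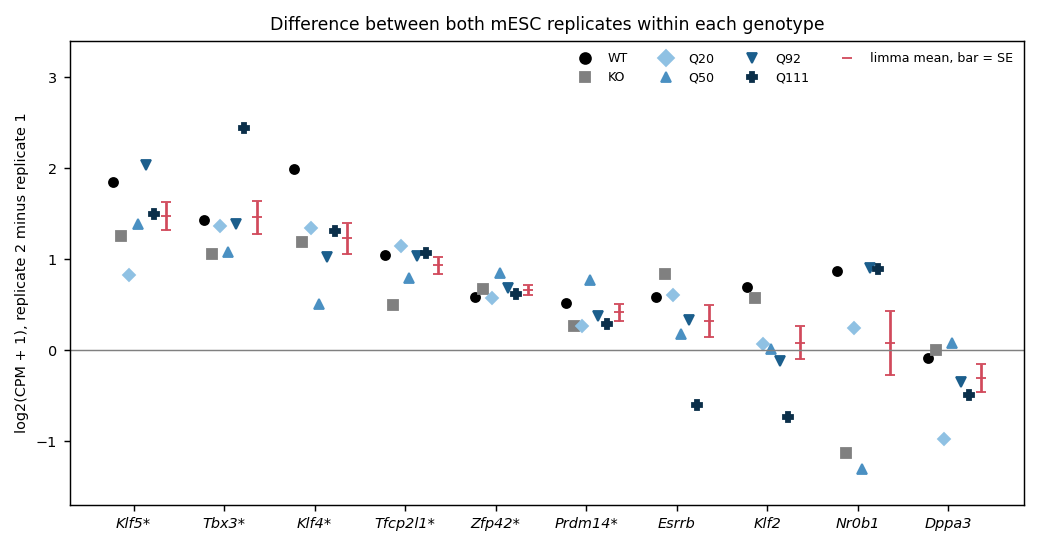
Difference between replicate 2 and replicate 1 on the log2(CPM + 1) scale (y axis) for each member (x axis), with 1 symbol per genotype, the limma mean and its SE in red, and an asterisk for an adjusted p under 0.05. All 6 symbols lie above 0 for Klf5, Tbx3, Klf4, Tfcp2l1, Zfp42 and Prdm14, and the symbols of Klf2, Esrrb, Nr0b1 and Dppa3 fall on both sides of 0.

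Other genes of the same network were read in the same comparison, in which 43.3% of all genes tested were called, 20.5% higher and 22.8% lower. List counts near these shares say nothing particular about a list. Of 11 tested genes of the LIF pathway 3 rose and 1 fell: the transducer Stat3 rose by 1.25 (SE 0.12), its feedback inhibitor Socs3 by 2.43 (SE 0.36) and Myc by 1.76 (SE 0.27), and the kinase Jak2 fell by 0.66. Of 11 core pluripotency genes 6 rose and 1 fell, among them Sall4 at 1.48 (SE 0.12), Dppa2 at 1.42 (SE 0.10) and Pou5f1 at 0.74 (SE 0.11), with Dppa5a at -0.53. Nanog differed by 0.35 (adjusted p = 0.352). Of 13 other naive-state genes 7 rose and 1 fell, with Tet2, a 5-methylcytosine dioxygenase, at 1.25 (SE 0.13) and the imprint regulator Zfp57 at 1.24 (SE 0.10). Of 10 primed-state genes 1 rose and 3 fell: Otx2, a factor of the transition out of naive pluripotency, fell by 1.46 (SE 0.17), Fgf5 by 0.96 (SE 0.27) and Zic2 by 0.41, while the cadherin Cdh2 rose by 0.62. Of 8 genes of DNA methylation linked to Prdm14, 5 rose and none fell, with Dnmt3l at 1.15 (SE 0.11). Etv4, a target of FGF and ERK signalling, rose by 1.90 (SE 0.19), and of its 8 list members 4 rose and 1 fell. Of 9 genes of the two-cell-like state 2 rose and none fell. The median difference was 0.54 over the members and -0.00 over all genes tested. Lists of other cell types also held called genes in this comparison. The fibroblast list had 6 higher and 2 lower of 15 tested, and its summed level ran from 41.5 to 339 in replicate 1 and from 51.6 to 227 in replicate 2. The trophectoderm list had 3 higher and 2 lower of 6, and primitive endoderm 2 higher and 1 lower of 8. The part of these cells in the members' difference was not tested.

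Against WT, the libraries labelled KO differed in none of the 10 members, beside 0.0144% of all genes called. No member reached an unadjusted p under 0.05 with limma or edgeR. Klf4 had the smallest p, with a difference of 1.14 (SE 0.78, adjusted p = 1). The replicate numbers paired the mESC libraries, since the deviations of same-numbered libraries correlated in every pair of lines. With the replicate number as a block, again no member was called, beside 0.115% of all genes. Klf4, Tfcp2l1 and Zfp42 then had unadjusted p-values of 0.0051, 0.0189 and 0.0271, all higher in KO, beside 11.6% of all genes with an unadjusted p under 0.05 in that fit.

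Against WT, Q20 had more Dppa3 and, once the replicate block was in the model, less Klf5, Tfcp2l1, Tbx3 and Prdm14. Without the block, Dppa3 was the 1 member called, beside 0.323% of all genes: its mean was 36.2 ± 17.1 normalised CPM (SD, n = 2) in Q20, beside a WT mean of 2.48 ± 0.15 (SD, n = 2), which is a difference of 3.34 (SE 0.35, adjusted p = 0.0161). This call was lost without WT replicate 1, WT replicate 2 or Q20 replicate 1, and when the libraries of the other 4 lines were left out. With the block 5 members were called, beside 10.6% of all genes, of which 5.91% were higher and 4.69% lower. Dppa3 was higher (adjusted p = 0.0023), and 4 were lower: Tbx3 at -1.74 (SE 0.31, adjusted p = 0.0192), Klf5 at -1.44 (SE 0.27, adjusted p = 0.021), Tfcp2l1 at -0.90 (SE 0.16, adjusted p = 0.0199) and Prdm14 at -0.90 (SE 0.17, adjusted p = 0.0204). Both Q20 libraries lay below both WT libraries for Klf5, Tbx3 and Prdm14, while for Tfcp2l1 the groups overlapped, although Q20 was lower at either replicate number. Esrrb had a difference of -1.16 (SE 0.30, adjusted p = 0.0516) with the block, and both Q20 libraries were also below WT. Groups did not overlap for 39.2% of all genes in this comparison. Leaving out 1 library at a time with the block, 1 to 6 members were called, while all genes called ran from 153 to 1557. Dppa3 was called in each of these 12 fits and was the only one without WT replicate 1, WT replicate 2 or Q20 replicate 2. Klf2, Klf4, Zfp42 and Nr0b1 were not called, with differences of 0.17, -0.10, -0.20 and 0.79.

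The same comparison also called markers of other cells. With the block 10.6% of all genes were called, 5.91% higher and 4.69% lower. Counts below that lie near these shares say nothing particular about a list. Of 15 fibroblast markers tested, 12 were higher in Q20 with the block and none lower, and Acta2, Col1a2 and Col1a1 were also called without it, at 4.31, 3.66 and 2.87. The defining collagen Col3a1 ranged from 0 to 13.6 normalised CPM over the mESC libraries and Twist2 from 0 to 0.47, and Lum and Fap had no mESC row. Of 8 primitive endoderm markers 6 were lower with the block, among them Dab2 at -2.56, Pdgfra at -1.75 and Gata4 at -1.69. Their summed level was 312 and 321 in WT and 89.5 and 132 in Q20, with Sox17 between 0 and 1.81 in all libraries. Lama1 had the highest median of the 8, 169 normalised CPM over all mESC libraries, beside a median sum of 200. The trophectoderm list had Krt8 at 2.15 and Krt18 at 1.84 higher of 6 tested, and the neural list had Nes at 3.28 higher of 7. The part of these cells in the members' differences was not tested. Among genes of the pluripotency network with the block, none of 11 core genes rose and Dppa5a fell by 1.11 (adjusted p = 0.00452). Of 13 other naive-state genes Zfp57, Dazl and Tet2 fell by 1.12, 1.78 and 0.91 and none rose. Of 10 primed-state genes Cdh2 rose by 2.24 (adjusted p = 0.00363) and the de novo methyltransferase Dnmt3b by 0.74 (adjusted p = 0.0197). Of the 8 genes of DNA methylation linked to Prdm14, 1 rose, which was Dnmt3b, and 2 fell, which were Tet2 and the maintenance methyltransferase Dnmt1 at -0.38 (adjusted p = 0.0342), and their median difference was -0.33. None of the 11 LIF pathway genes and none of the 9 genes of the two-cell-like state was called, without or with the block. The median difference was -0.55 over the members and -0.04 over all genes.

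**Figure D3:**
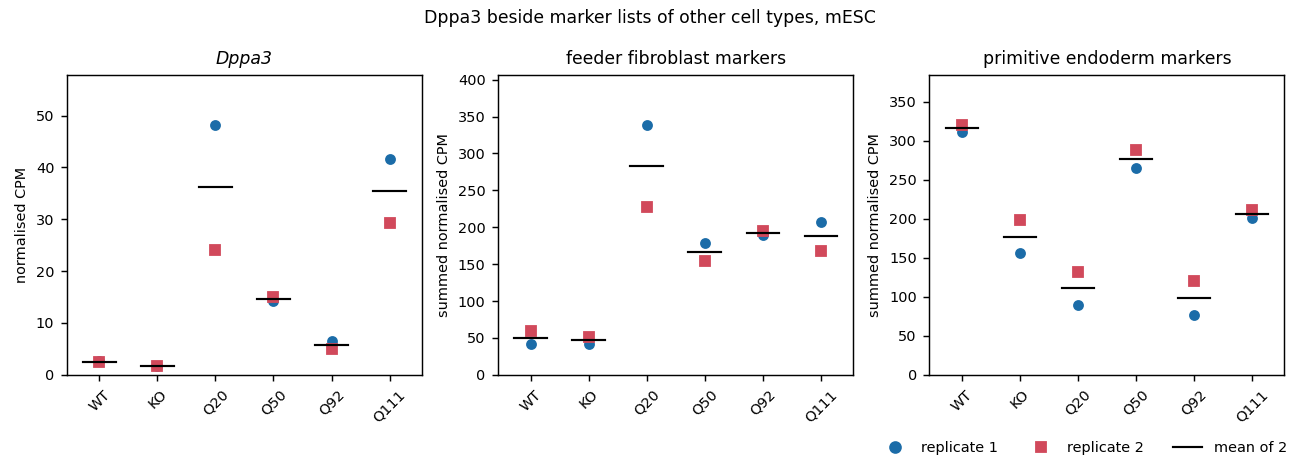
Normalised CPM of Dppa3 (left), and summed normalised CPM of 16 fibroblast markers (middle) and 8 primitive endoderm markers (right), in the 12 mESC libraries by genotype, all y axes linear from 0 (circles replicate 1, squares replicate 2, bars the mean of 2). Dppa3 and the fibroblast sum are both lowest in WT and KO and highest in a Q20 library. Q92 has Dppa3 at 6.53 and 4.91 and a fibroblast sum of 189 and 196. A relation between Dppa3 and the fibroblast sum was not tested. Lama1 had the highest median of the 8 primitive endoderm markers.

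The other knock-in lines were compared with Q20, which carries the shortest repeat, and the comparisons share the Q20 libraries. Q50 against Q20 called none of the members without the block, beside 0.00719% of all genes, and 2 had an unadjusted p under 0.05 with limma and with edgeR, beside 6.37% of all genes with limma. With the block Tfcp2l1 was called, higher in Q50 by 1.16 (SE 0.16, adjusted p = 0.0356), beside 0.984% of all genes. Klf5 just missed the threshold at 1.55 (SE 0.27, adjusted p = 0.050), and Klf4 had 1.28 and Dppa3 -1.17 (adjusted p = 0.0934 for each). In Q92 against Q20 none was called without the block, beside 0.00719% of all genes, and 2 had an unadjusted p under 0.05 with limma and with edgeR, beside 5.37% of all genes with limma. With the block Dppa3 was lower in Q92 at -2.40 (SE 0.27, adjusted p = 0.0271), beside 0.46% of all genes. Its level there was 5.72 ± 1.14 normalised CPM (SD, n = 2), nearer to WT than to Q20. Klf4 and Tbx3 had differences of 1.41 and 1.48 (adjusted p = 0.0904 and 0.0934). In Q111 against Q20 no member was called without the block or with it, beside 0% and 0.0575% of all genes, and none had an unadjusted p under 0.05 without it by limma or edgeR. The smallest p without the block was that of Tfcp2l1, lower in Q111 at -0.85 (SE 0.58, adjusted p = 0.999), and Dppa3 differed by 0.03 (SE 0.35). With the block, limma gave Tfcp2l1 and Tbx3, both lower in Q111, unadjusted p-values of 0.000957 and 0.0354. Zfp42, higher in Q111, had 0.00872. In that fit 8.09% of all genes had an unadjusted p under 0.05, and Tfcp2l1 had an adjusted p of 0.18.

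Set against WT instead, each knock-in line had a higher Dppa3 level than WT, in comparisons that share the WT libraries. The differences were 2.16 in Q50 (adjusted p = 0.216, and 0.0247 with the block), 0.94 in Q92 (adjusted p = 0.783, and 0.154 with the block) and 3.37 in Q111 (adjusted p = 0.016, and 0.00169 with the block). All genes called without and with the block made up 0.0144% and 0.905% in Q50, 0.0719% and 0.776% in Q92, and 0.316% and 7.42% in Q111. With the block Q111 was also lower than WT in Tbx3 at -2.54 (SE 0.31, adjusted p = 0.00883), Tfcp2l1 at -1.75 (SE 0.16, adjusted p = 0.00308) and Klf5 at -1.28 (SE 0.27, adjusted p = 0.0329). In Q50 and Q92 no member was lower than WT at the threshold. Repeat length did not order these values. Q20 and Q111, the shortest and the longest, had the highest Dppa3 and the lowest Tbx3, Tfcp2l1 and Esrrb levels by line mean.

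**Figure D4:**
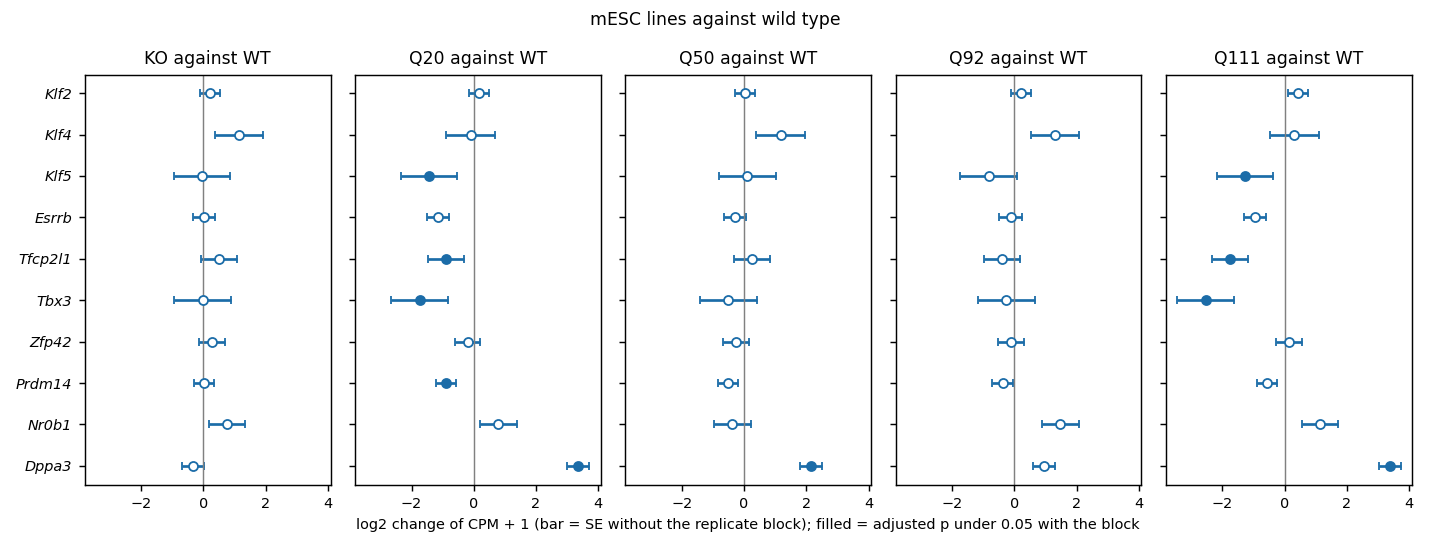
Log2 change of CPM + 1 of each line against WT (x axis) for each member (y axis), mESC, 1 panel per line, with the SE without the replicate block as bars and points filled where the adjusted p with the block was under 0.05. Dppa3 is filled in the Q20, Q50 and Q111 panels, Klf5, Tfcp2l1 and Tbx3 in Q20 and Q111, Prdm14 in Q20, and nothing is filled in KO and Q92.

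Across the 8 knock-in libraries, a slope on the number of CAG repeats was called for none of the members and for 0% of all genes, without and with the block. No member had an unadjusted p under 0.05 without the block by limma or edgeR, and with it Zfp42 had one, at 0.0349 for a rise of 0.32 over 91 repeats, beside 5.81% of all genes. Nr0b1 had the smallest p without the block, with a rise of 0.94 (SE 0.66, adjusted p = 1) over 91 repeats. The length differed only between 4 lines. A test for any difference among the 6 genotypes called Dppa3 alone (adjusted p = 0.0108), beside 0.201% of all genes, a call that was lost without WT replicate 2, KO replicate 1 or KO replicate 2. With the block it called 6 members beside 8.67% of all genes: Dppa3 (adjusted p = 0.00172), Tfcp2l1 (0.00422), Tbx3 (0.0139), Klf5 (0.0302), Klf4 (0.0475) and Prdm14 (0.0492). Zfp42 had an adjusted p of 0.0525, Esrrb 0.102, Nr0b1 0.274 and Klf2 0.85. When any 1 library was left out with the block, 3 or 4 members were called, with Dppa3, Tfcp2l1 and Tbx3 in each of the 12 fits, while all genes called fell from 1206 to between 335 and 791.

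Across the 12 mESC libraries the members formed a group that varied together and a few that did not, given here as a description, since these libraries share lines, replicate numbers and scaling. On log2(CPM + 1), Tfcp2l1 and Tbx3 had a Pearson r of 0.93, Tfcp2l1 and Klf5 0.86 and Klf5 and Tbx3 0.86. After the mean of each replicate number was subtracted, these were 0.91, 0.84 and 0.77. Dppa3 went against most members, with r of -0.81 with Esrrb, -0.80 with Prdm14 and -0.76 with Tbx3, and -0.82, -0.88 and -0.88 after subtraction. Klf2 and Nr0b1 had weaker correlations, with r between -0.32 and 0.26 for Klf2 and between -0.28 and 0.18 for Nr0b1 with any other member. After subtraction these ran from -0.51 (with Tbx3) to 0.28 for Klf2 and from -0.45 (with Klf5) to 0.20 for Nr0b1. Zfp42 and Tbx3 had r of 0.51, and -0.02 after the replicate means were subtracted. Outside the members, the 5 genes with the profile most like the members' mean (mean normalised CPM of at least 5, Pearson r over 12 libraries) were Mepce at 0.955, Jarid2 at 0.952, Kdm2b at 0.951, Vegfc at 0.948 and Hira at 0.943. After subtraction of the replicate means they were Triml2 at 0.96, Ranbp9 at 0.947, Dnmt1 at 0.931, Zkscan2 at 0.931 and Btbd11 at 0.93.

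In NPC the members were low, and their levels are not tested against mESC because the 2 tables were normalised separately. Both Q20 libraries stood apart from the rest: their summed level of core pluripotency markers was 231 and 234 normalised CPM, beside 0.735 to 3.08 in the other 10 libraries. Their neural progenitor markers summed to 2652 and 2773, beside 4468 to 7188 in the others. The fibroblast list summed to 1221 and 1223 in Q50 and to 207 to 533 in the others. Of the 7 members with values, 5 passed the filter, and Tfcp2l1 (0 to 0.646) and Nr0b1 (0 to 2.13) did not. A test for any difference among genotypes called 4 of the 5, beside 38% of all genes. One of these, Tbx3, passed the filter only through KO and Q50, where it was high, so some difference was built in, and apart from it 3 of 4 were called. Without both Q20 libraries Klf2 was lost (adjusted p = 0.0528), leaving 2 of those 4. All genes called were then 2531 of 12835 tested, in place of 5020 of 13206.

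Klf4 had 5.89 and 4.41 normalised CPM in WT NPC, 15.0 and 5.91 in KO, 3.19 and 3.83 in Q20, 2.19 and 2.62 in Q50, 13.2 and 18.5 in Q92 and 10.9 and 10.2 in Q111 (adjusted p = 0.00865, and 0.0282 without Q20). It was the member with the highest median per kilobase in NPC, at 1.93. Klf2 had 0.228 and 1.30 in WT, 1.69 and 1.84 in KO, 0.770 and 0.836 in Q20, 0.561 and 1.12 in Q50, 3.67 and 7.82 in Q92 and 1.48 and 2.38 in Q111 (adjusted p = 0.0213). Both Klf2 and Klf4 were highest in Q92 by line mean. Klf5 went the other way, with 3.17 and 2.39 in WT, 1.11 and 0.600 in KO, 2.16 and 2.18 in Q20, 1.10 and 1.42 in Q50, 0.611 and 0.532 in Q92 and 1.81 and 1.8 in Q111 (adjusted p = 0.00413, and 0.0186 without Q20). WT was highest and Q92 lowest. Tbx3 had 0.0701 and 0.0859 in WT, 1.47 and 1.47 in KO, 0.0497 and 0.0858 in Q20, 1.14 and 1.40 in Q50, 0.528 and 0.375 in Q92 and 0 in both Q111 libraries (adjusted p = 0.000112, and 0.00177 without Q20). KO and Q50, through which it passed the filter, were the highest lines. Esrrb ranged from 0.721 to 7.74 and was not called (adjusted p = 0.132). Nr0b1 reached 0.769 and 2.13 in the KO libraries and no more than 0.0965 in any other.

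**Figure D5:**
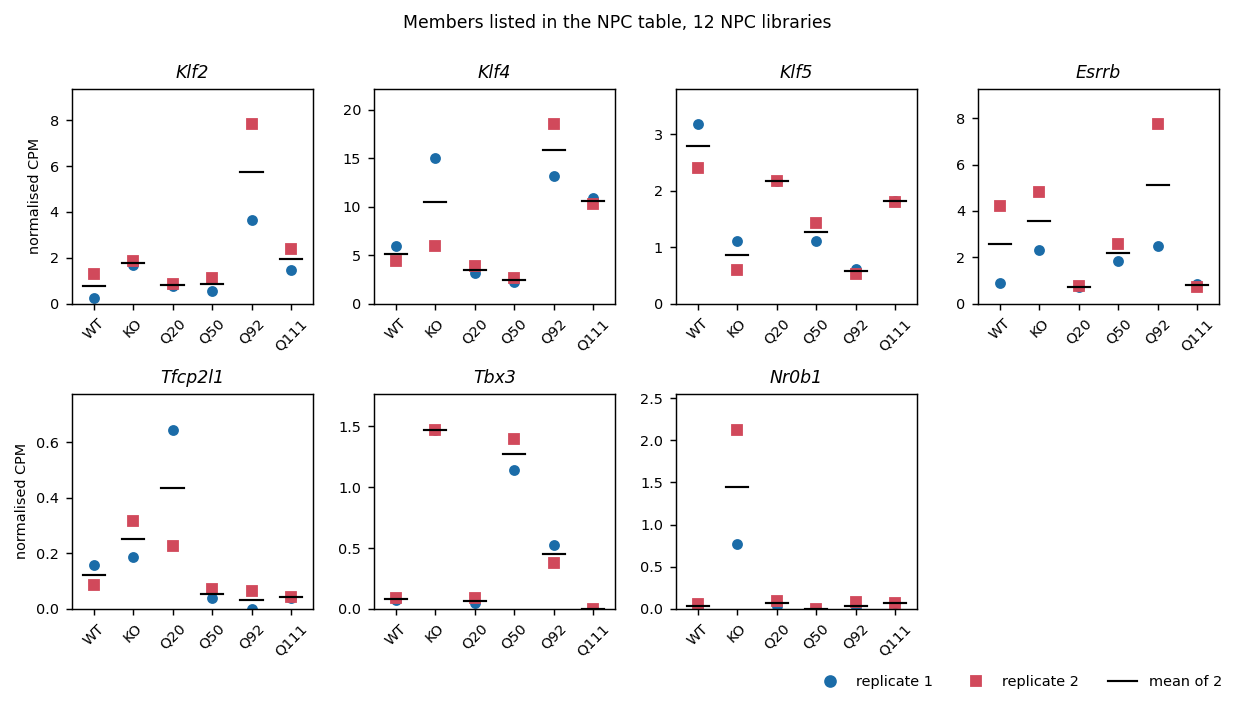
Normalised CPM (y axes, linear from 0, of different ranges) of the 7 members measured in the 12 NPC libraries by genotype (x axis; circles replicate 1, squares replicate 2, bars the mean of 2). Klf4 stays under 18.5, Tbx3 is above 1 only in KO and Q50, and Nr0b1 is above 0.1 only in KO.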

How the data were processed

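RNA was sequenced from 12 mESC and 12 NPC libraries, 2 for each of 6 genotypes. Per the submitters' processing notes, CASAVA 1.8 and STAR were used on GRCm38.p6; the counting tool, its use of strand and the filter on genes are not given in the sources used here. The authors deposited 1 table per cell type of a normalised CPM signal, whose column totals ran from 900342 to 1080730. In every column 100% of the values were whole reads within 0.02 of a read after division by 1 step, which gave the read totals; these cover counting depth alone. Genes with at least 1 CPM in at least 2 libraries of a table were tested as log2(CPM + 1) with limma 3.58.1 (moderated statistics with a variance trend, two-sided, Benjamini-Hochberg over all genes tested, threshold 0.05) in R 4.3.3, with 1 mean per genotype. P-values measure the spread between these libraries. edgeR 4.0.16 (quasi-likelihood test on the recovered reads) was an alternative, as were pseudocounts of 0.1 and 5, other filters, median-of-ratios scaling, a replicate block, WT as the reference, a repeat length of 89 and each library left out.

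The replicate numbers come from the titles. Deviations from line means of same-numbered mESC libraries correlated above 0.1 in 15 of 15 pairs of lines (0.25 to 0.547), so blocked values are printed; in NPC this held in 3 of 15. Positions and exonic lengths are from GENCODE M21, promoters from RefSeq on GRCm38.p6, which matched 6 members (Klf5, Tbx3, Dppa3 and Prdm14 were not matched). Members were named with all values; change, SE and adjusted p were printed for those called or, failing that, for the smallest p. The members and the lists of pathway and marker genes were chosen with earlier results of these data known, so the lists are no independent support. On simulated mESC data the limma and edgeR fits were tried for Q20 against WT without the block and for the comparison of replicates. The simulation gave only a small part of the genes a replicate difference, while 43.3% were called here. It therefore cannot show how these fits behave under so wide a replicate difference. The fits with the block, the test for any difference, the slope and the NPC fits were not tried in that way.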

Additional observations from a re-analysis of the deposited data

Results flagged for a closer look

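For 2 of the 5 members that passed the filter on low values in both cell types, Q50 and Q20 lay in opposite order in the 2 cell types. Both libraries of one line lay above both of the other each time, and the difference between the cell types was not tested. The search for such an order covered KO with WT, Q20 with WT, and Q20 with each line of longer repeat. Other pairs of lines were not searched, and only the cases found are listed. In mESC alone, Q50 and Q20 did not overlap for 32.7% of all genes tested. The share of all genes with opposite order in both cell types was not computed, so the count says nothing particular about the members. Klf4 was higher in Q50 than in Q20 in mESC, with means of 79.0 and 35.1 normalised CPM, and lower in NPC, with 2.40 and 3.51. Klf5 was higher in Q50 in mESC, with means of 81.6 and 25.3, and lower in NPC, with 1.26 and 2.17. Tfcp2l1, which did not pass the filter in NPC, had the same order, with 156 and 272 in Q50 and 61.2 and 136 in Q20 in mESC, and 0.0387 and 0.0706 in Q50 and 0.646 and 0.225 in Q20 in NPC. Its NPC values rest on 2 and 6 reads in Q50 and on 52 and 21 in Q20. Neither Klf4 nor Klf5 was called in Q50 against Q20 in mESC, and the Q20 NPC libraries are those with a summed level of core pluripotency markers of 231 and 234.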

How the results depend on the processing

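The replicate block changed most counts of members called: Q20 against WT went from 1 to 5, Q50 and Q92 against Q20 from 0 to 1 each and any genotype difference from 1 to 6, and edgeR with the block gave 5, 1, 1 and 5; it changed no call in KO against WT, Q111 against Q20 or the slope on repeat length. All genes called rose with the block from 2 to 16 for KO against WT, 45 to 1475 for Q20 against WT, 1 to 137 and 1 to 64 for Q50 and Q92 against Q20, 0 to 8 for Q111 against Q20 and 28 to 1206 for any difference; edgeR with the block gave 8, 1292, 78, 30, 6 and 1112, and edgeR without it 12 for Q20 against WT. When the fit held just the 4 libraries being compared, Q20 against WT called 0 members and 0 genes, and 0 genes were called for KO against WT and Q92 against Q20. Leaving out 1 library gave 0 to 1 members for Q20 against WT and 0 to 1 for any difference in mESC, 6 to 7 for the replicates and 3 to 5 for NPC. Without genotype in the model, 3 members were called between replicates. Without a filter, 52 genes showed any difference. In NPC, all genes called ran from 2824 to 7799 with 1 library left out.

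With WT as the reference in place of Q20, Q111 called 1 member, and of the 30 differences of 10 members in 3 lines 15 turned sign, 5 in Q50, 7 in Q92 and 3 in Q111. Among them, Esrrb was at -0.30 in Q50 and -0.12 in Q92, and Dppa3 at 2.16 in Q50 and 0.94 in Q92. This follows from the construction, since each such value is the difference from Q20 plus that of Q20 from WT, which was -1.16 for Esrrb and 3.34 for Dppa3. Dppa3 in Q20 against WT was called in 17 of 21 alternatives (adjusted p 0.0023 to 0.376). The fits with the block and 1 library left out, and the NPC fit without both Q20 libraries, were chosen after seeing the data. Each line has 2 libraries, so spread is borrowed across lines, and values under 1 CPM in NPC rest on few reads.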
